A study of Mus musculus with 8 samples.

Results

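ATAC-seq peaks were compared between sorted mouse mammary tumor cells with and without Lats1, and the regions described here are those that carried a peak in wild-type (WT) basal-like cells, carried none in WT luminal cells, and carried one in the library BM7 of Lats1-CKO luminal cells. They were selected on the peak lists themselves. Peaks of all 8 libraries were merged into 183194 regions where they overlapped by at least 1 bp. A region where BM2 and BM6 (from WT basal-like cells) each had a peak, and BM1 and BM5 (from WT luminal cells) had none, is called here a WT basal-like region, and there were 1895. Of these, 1299 had a peak in BM7 and are the members of the set, and 596 had none and serve for comparison. The counts depended on the WT libraries in the rule: there were 8625 members without BM1, 3917 without BM2, 4826 without BM6 and 1985 without BM5, while the share with a BM7 peak was 68.5% under the full rule and 35.7% without BM6 to 86.2% without BM1. BM7 is 1 of the 2 Lats1-CKO luminal libraries. The other, BM3, had a peak in 26 members (2.0%), against 7.78% of all merged regions, and with BM3 in place of BM7 the rule left 36. A BM7 peak was itself common, in 50% of all merged regions and in 61.7% of mixed regions, which had a peak in 1 library of each WT population. The name "opened in Lats1-CKO luminal cells" therefore rests on 1 library, and the set is called here by its rule, as WT basal-like regions with a BM7 peak.

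All cells came from cultured lines derived from mammary tumors driven by the polyomavirus middle T antigen (PyMT) in mice of strain FBV/N, as the labels spell it. They were grown in DMEM with FCS. Both genotypes, WT and Lats1-CKO (a conditional knockout of Lats1), were sorted by flow cytometry into a luminal population (EpCAM-high and CD49f-high) and a basal-like population (EpCAM-low and CD49f-high), which were briefly expanded before the assay. There were 2 libraries per group. WT cells gave BM1 and BM5 from the luminal sort and BM2 and BM6 from the basal-like sort, and Lats1-CKO cells gave BM3 and BM7 (luminal) and BM4 and BM8 (basal-like). The cells had left the tumor environment, and nothing in the labels says how many separate lines the libraries stand for. The authors dropped a Lats1-CKO luminal replicate at quality control when they merged tracks. Which one is not named in the methods, and both are shown here.

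LATS1 is a kinase of the Hippo pathway, which phosphorylates the coactivators YAP and TAZ and keeps them from joining TEAD factors in the nucleus. The study linked it to NCOR1, a corepressor that nuclear receptors and other factors recruit with histone deacetylases. Luminal cells of the mammary gland line the ducts and alveoli. Basal cells lie beneath them on the basement membrane, contract under oxytocin, and are marked by p63 and smooth muscle proteins. ATAC-seq reads out where the transposase Tn5 can enter chromatin, and a peak marks such an open stretch, as found at promoters and enhancers.

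The libraries differed in how many peaks they held, from 14753 in BM3 to 99022 in BM8, and BM7 held 93467. The lists carry no read counts and the methods give sequencing depth as an average only, so the depth of each library is not known here, and an absent peak can reflect depth as well as closed chromatin. BM3 stood apart in a second respect, with 56.4% of its peaks within 1 kb of a transcription start site (TSS) against 24.2% to 33.2% in the other 7. Against their sort labels, the populations were only partly told apart by promoter peaks: of 9 luminal markers, 9 and 8 had a promoter peak, meaning a TSS within 1 kb, in the WT luminal libraries, 7 and 6 in the WT basal-like ones and 8 in BM7. BM3, BM4 and BM8 had 4, 7 and 5 of the luminal markers. Of 6 basal-like markers, BM7 had 4 (Krt5, Krt14, Krt17 and Itga6), BM4 had 3, and BM3, BM8 and each WT library had 2. In every WT library the 2 were Krt14 and Itga6, so these promoters did not separate the WT populations. Trp63 had none in any library. Markers of fibroblasts (0 to 3 of 5), immune cells (0 to 3 of 4) and endothelial cells (0 to 2 of 3) had such peaks in some libraries, and their part in the results was not tested. In a bulk library, a larger share of cells of one type and more open chromatin per cell cannot be told apart.

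The sequences below show what the set holds, first the 6 of its 10 strongest regions that do not overlap an untranslated exon part, then 4 beside genes of basal cells and of the Hippo pathway, and last 2 WT basal-like regions without a BM7 peak. They are from GRCm38.p6 (mm10), plus strand, 5′ to 3′. Of the member near Ereg, chr5:91104348-91104714, only the central 300 bp are shown, and the other regions are shown whole. Capitals mark matches on either strand to AP-1 (TGANTCA, where N is any base; the site of FOS and JUN dimers), RUNX (TGTGGT), the NFI half-site (TTGGCA) and the core of the CTCF site (AGGGGGC). Within the central 200 bp these were found in 26.1%, 21.6%, 16.6% and 4.69% of all merged regions. The regions at Trp63, Oxtr, Mylk, Lats2, Cdh1 and Zdhhc25 were picked after their values were seen, because they hold an AP-1 match, so the matches in them do not show how often such regions have one. The 6 strong regions were not picked for a motif, and 1 of them holds an AP-1 match in the sequence shown.
Upstream of Tgfbi, chr13:56582126-56582419: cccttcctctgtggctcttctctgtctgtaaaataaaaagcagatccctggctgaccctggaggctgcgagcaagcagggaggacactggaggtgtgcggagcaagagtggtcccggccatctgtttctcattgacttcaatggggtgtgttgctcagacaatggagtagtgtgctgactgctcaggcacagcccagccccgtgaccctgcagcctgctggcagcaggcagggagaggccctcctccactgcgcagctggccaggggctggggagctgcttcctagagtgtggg
Near Ccnc, chr4:21726959-21727109: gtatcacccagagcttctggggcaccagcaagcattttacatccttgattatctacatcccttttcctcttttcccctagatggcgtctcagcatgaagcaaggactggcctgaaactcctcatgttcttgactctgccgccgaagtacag
Near Ereg, chr5:91104381-91104680: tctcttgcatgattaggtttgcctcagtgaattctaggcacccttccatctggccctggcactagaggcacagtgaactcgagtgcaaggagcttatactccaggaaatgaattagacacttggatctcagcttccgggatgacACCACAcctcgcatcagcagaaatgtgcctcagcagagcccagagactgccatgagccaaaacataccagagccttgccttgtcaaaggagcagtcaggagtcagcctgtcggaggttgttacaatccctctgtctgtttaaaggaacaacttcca
Near Mpzl1, chr1:165643170-165643301: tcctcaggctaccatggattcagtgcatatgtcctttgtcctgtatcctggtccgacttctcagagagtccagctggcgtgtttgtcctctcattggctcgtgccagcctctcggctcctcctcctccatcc
Near Fzd7, chr1:59487609-59487809: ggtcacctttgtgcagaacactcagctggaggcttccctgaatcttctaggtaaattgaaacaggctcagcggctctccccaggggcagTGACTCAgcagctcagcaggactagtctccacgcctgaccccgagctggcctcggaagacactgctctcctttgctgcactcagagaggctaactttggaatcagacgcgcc
Nhlh1, chr1:172047016-172047133: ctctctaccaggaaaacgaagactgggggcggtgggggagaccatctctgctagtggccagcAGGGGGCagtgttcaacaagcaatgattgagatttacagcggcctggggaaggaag
Trp63, chr16:25615827-25615985: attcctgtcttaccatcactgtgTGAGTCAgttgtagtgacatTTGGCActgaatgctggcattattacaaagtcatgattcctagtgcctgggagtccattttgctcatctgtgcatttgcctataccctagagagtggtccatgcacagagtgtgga
Oxtr, chr6:112497571-112497788: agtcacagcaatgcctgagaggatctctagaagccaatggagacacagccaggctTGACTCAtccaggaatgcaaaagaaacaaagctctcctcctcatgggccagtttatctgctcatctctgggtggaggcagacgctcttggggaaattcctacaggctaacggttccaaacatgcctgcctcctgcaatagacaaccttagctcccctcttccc
Mylk, chr16:34996219-34996410: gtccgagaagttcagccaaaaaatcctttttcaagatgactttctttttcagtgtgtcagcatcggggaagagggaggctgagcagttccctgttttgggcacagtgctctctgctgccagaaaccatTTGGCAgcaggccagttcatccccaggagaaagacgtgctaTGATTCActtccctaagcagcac
Lats2, chr14:57729959-57730195: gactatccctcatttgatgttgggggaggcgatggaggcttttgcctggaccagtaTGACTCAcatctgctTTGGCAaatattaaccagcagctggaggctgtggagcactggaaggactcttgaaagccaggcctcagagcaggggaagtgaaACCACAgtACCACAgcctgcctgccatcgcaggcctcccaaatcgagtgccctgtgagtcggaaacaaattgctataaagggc
Cdh1, without BM7 peak, chr8:106614753-106614960: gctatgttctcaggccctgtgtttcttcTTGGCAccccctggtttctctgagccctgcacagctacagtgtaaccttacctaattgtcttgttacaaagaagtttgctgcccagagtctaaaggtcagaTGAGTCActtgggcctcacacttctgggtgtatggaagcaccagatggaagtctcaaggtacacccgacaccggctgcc
Zdhhc25, without BM7 peak, chr15:88502415-88502625: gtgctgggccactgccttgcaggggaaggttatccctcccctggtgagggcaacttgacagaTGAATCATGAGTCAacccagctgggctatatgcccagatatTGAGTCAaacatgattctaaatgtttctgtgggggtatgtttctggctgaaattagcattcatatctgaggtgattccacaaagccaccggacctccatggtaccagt

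The first of these, the strongest member, showed the pattern of the rule most fully. Strength is given throughout as a percentile of the score within its own library, where 50 is the median peak, because scores are not comparable between libraries. The lists differ in length, and a longer list lifts the percentile of the same peak, so percentiles are not read as changes from one library to another. Members were ranked by the smallest of their percentiles in BM2, BM6 and BM7. The region upstream of Tgfbi, which encodes a matrix protein induced by TGF-beta, lay 27104 bp from that gene's TSS and 13118 bp from that of the long noncoding RNA 2010203P06Rik (ENSMUSG00000114604). Its percentile was 78.8 in BM2, 89.4 in BM6 and 77.8 in BM7, and it was 86.8 in BM4 and 91.7 in BM8. Only BM3 among the Lats1-CKO libraries lacked it. Both WT luminal libraries had a peak beside it, at 342 bp from its edge at the nearest, so the absence of a luminal peak held for the region itself and not for its surroundings. It contains none of the 4 marked motifs.

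**Figure D1:**
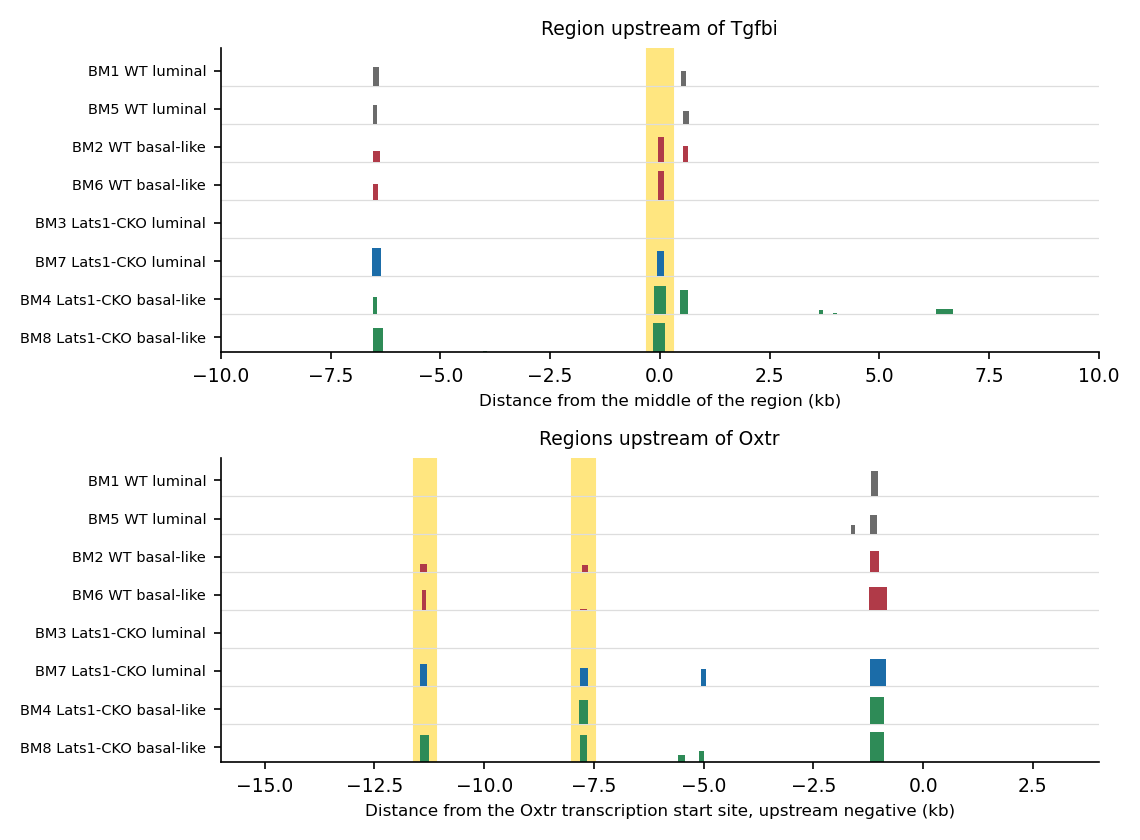
Peaks of the 8 libraries around the member upstream of Tgfbi (top, distance from its middle in kb) and around the members upstream of Oxtr (bottom, distance from the Oxtr TSS in kb, upstream negative). Bars stand at peaks to scale, bar height is the score percentile within the library, and yellow bands, widened to be visible, mark the members, where BM2, BM6 and BM7 have a peak and BM1 and BM5 have none.

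Of the 10 strongest members, 5 lay within 1 kb of the TSS of a coding gene. A member of 159 bp in an untranslated exon part of Fyco1 (ENSMUSG00000025241, chr9:123851424-123851582), an adaptor for autophagosome transport, had percentiles of 71.6 in BM2, 71.8 in BM6 and 77.9 in BM7. At Cav2 (ENSMUSG00000000058, chr6:17282286-17282530), which encodes a caveolin of the plasma membrane, they were 66.4, 88.4 and 88.3. The member over the TSS of Nid2 (ENSMUSG00000021806, chr14:19750991-19751332), a basement membrane nidogen, had 65.5, 74.1 and 76.4. All 3 also had a peak in BM4 and BM8, of 54.6 to 87.2, and none in BM3. Ccnc, encoding the cyclin of the Mediator kinase module, had a member 592 bp from its TSS with percentiles of 66.1, 66.5 and 65.2. Il2rb, a cytokine receptor subunit of lymphocytes, had a member across its TSS with 66.4, 63.4 and 73.2, and there BM4 reached 99.3 and BM3 had a peak too, at 41.0. It was the single one of the 10 with a BM3 peak.

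The remaining 4 of the 10 lay away from coding genes. One was 29726 bp from the TSS of Ereg, which encodes epiregulin, a ligand of the EGF receptor, and its percentile was 63.3 in BM2, 87.9 in BM6, 69.3 in BM7 and 89.1 in BM8. Another lay 5185 bp from the TSS of Fzd7, a Wnt receptor of basal mammary cells, with 65.0, 60.4 and 73.3 in BM2, BM6 and BM7. The others were nearest to the coding genes Mpzl1 (8632 bp) and Nhlh1 (10440 bp). All 4 had peaks in BM4 and BM8 as well. Among members within 1 kb of a coding TSS, the next in rank after these were at Dmpk, Zfp52, Zfp369, Chd2 and Glis3, whose smallest percentiles were 59.7, 57.9, 56.7, 55.8 and 55.5. Each had a BM4 peak, and Zfp52 alone of the 5 had none in BM8.

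How the members behaved in the 3 libraries that the rule did not use can be compared with the 596 WT basal-like regions without a BM7 peak. In BM8, a Lats1-CKO basal-like library, 1050 of 1299 members had a peak (80.8%) against 243 of 596 (40.8%), a difference of 40.1 percentage points (Newcombe 95% interval 35.5 to 44.4). BM4, the other Lats1-CKO basal-like library, had a peak in 932 members (71.7%) against 374 (62.8%), a difference of 9.0 points (4.45 to 13.6). BM3 had one in 2.0% of members against 1.68%, and the interval of the difference of 0.324 points, from -1.2 to 1.52, spanned 0. The difference was thus larger in BM8 than in BM4. With peaks above the median score of their library only, that of BM4 was 3.25 points (-3.0 to 9.78). It was 27.9 and 22.7 points without BM2 and without BM6 in the rule, when the BM8 difference was 53.2 and 42.0. With BM3 in place of BM7, which left 36 members, it was 12.0 points in BM4 (-3.7 to 21.9) and -7.16 in BM8 (-23.5 to 7.11). Regions are not replicates of a condition, so the intervals cover counting over regions only, and no p-value is given: 3 libraries could not reach a two-sided exact p below 0.25.

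**Figure D2:**
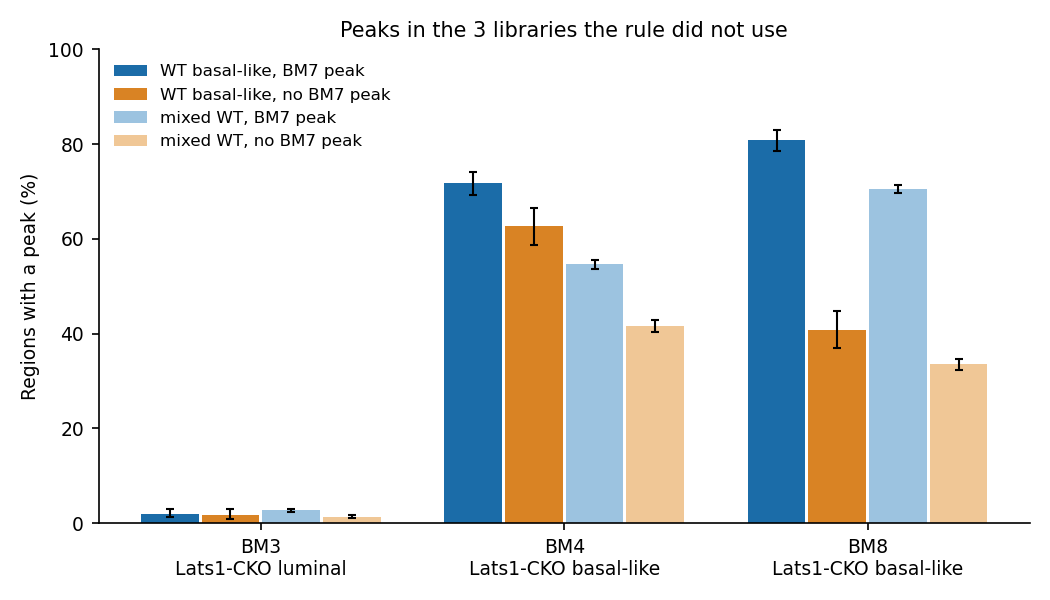
Share of regions with a peak (%, bars, with Wilson 95% intervals) in the 3 libraries not used to choose them, for WT basal-like and mixed regions with and without a BM7 peak. The BM8 share of regions with a BM7 peak is 80.8% against 40.8% in WT basal-like and 70.5% against 33.5% in mixed regions, and BM3 stays under 3% in all 4.

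A peak in BM4 or BM8, though not in BM3, was common in any region, and a BM7 peak went with a BM8 peak in general. Of all merged regions, 50% carried a BM7 peak, 46.3% a BM4 peak, 53.2% a BM8 peak and 7.78% a BM3 peak. The 15538 mixed regions were also open in 2 of the 4 WT libraries, and their 61.7% with a BM7 peak compares with 68.5% of WT basal-like and 55.5% of WT luminal regions. Of mixed regions with a BM7 peak, 54.6% carried a BM4 peak, 70.5% a BM8 peak and 2.69% a BM3 peak. In mixed regions the difference between those with and without a BM7 peak was 37.1 points in BM8 and 13 points in BM4, and over all merged regions 32 and 16.3 points. The link of BM7 with BM8 was therefore similar in size in mixed regions, where the interval was 35.5 to 38.6 points. The level differed more. With a BM7 peak, the BM4 share was 71.7% of members against 54.6% of mixed regions. The BM8 share was 80.8% against 70.5%. Neither pair of Wilson intervals overlapped, but these cover counting over regions only and not a spread between libraries. Without a BM7 peak, WT basal-like regions also lay above mixed ones, by 62.8% against 41.6% in BM4 and 40.8% against 33.5% in BM8. The higher level was thus not particular to members. By definition, mixed regions lack a peak in BM2 or in BM6. Of those with a BM7 peak, 82.7% had a BM1, 70.4% a BM2, 17.3% a BM5 and 29.6% a BM6 peak. What part this had in the level was not tested.

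More than any other pattern, members had a peak in both Lats1-CKO basal-like libraries. A peak in BM4 and BM8 but not BM3 was found in 769 of them (59.2%), against 166 of the regions without a BM7 peak (27.9%), 42.9% of mixed regions with a BM7 peak and 21.9% of all merged regions. A peak was found in BM8 alone in 261 members, in BM4 alone in 143 and in all 3 libraries in 15. No peak in any of the 3 was found in 100 members (7.7%). Among regions without a BM7 peak, the most frequent pattern was a peak in BM4 alone (199, 33.4%), and 146 (24.5%) had none in BM3, BM4 or BM8.

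The BM3 share was also read at equal numbers of peaks. When each library was limited to its 14753 highest-scoring peaks, the number in BM3, there were 626 WT basal-like regions, and a peak was present in 31.3% of them for BM3 and 47.6% for BM7, beside 52.2% for BM4 and 46.0% for BM8. Mixed regions defined the same way had a peak in 35.5% in BM3 and 38.1% in BM7, and WT luminal regions in 42.0% and 35.4%. At equal numbers of peaks BM3 thus had a lower share in WT basal-like than in WT luminal regions, and BM7 a higher one. The cut also redefines the regions, since a WT luminal peak below it counts as absent, and BM3 alone kept its weakest peaks. With the 50000 highest-scoring peaks, a number BM3 does not reach, its share was 2.87% of 1985 WT basal-like regions. Whether the number of peaks or depth sets the low BM3 share was not tested.

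By strength, members were mostly below the median peak of the WT basal-like libraries. Their median percentile was 29.3 in BM2 and 34.7 in BM6, and 18.3% and 22.6% of them were at or above the median peak of those libraries. In BM7 the median was 45.3, and the 932 and 1050 members with a peak in BM4 and BM8 had medians of 57 and 57.2. Counted from the strongest peak instead, the median member had rank 49817 in BM2, 33651 in BM6 and 51172 in BM7. The median rank was 37076 over the 932 members with a BM4 peak and 42422 over the 1050 with a BM8 peak. Members without a peak there have no rank, so ranks are not compared between these libraries. Regions without a BM7 peak had medians of 24.8 in BM2, 25.2 in BM6, 54.6 in BM4 and 38.3 in BM8. The gap between the sets was thus 18.9 percentile points in BM8 and 2.46 in BM4, the libraries that the rule did not use. Scores in BM2, BM6 and BM7 come from the peaks that chose the regions and are given as a description.

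**Figure D3:**
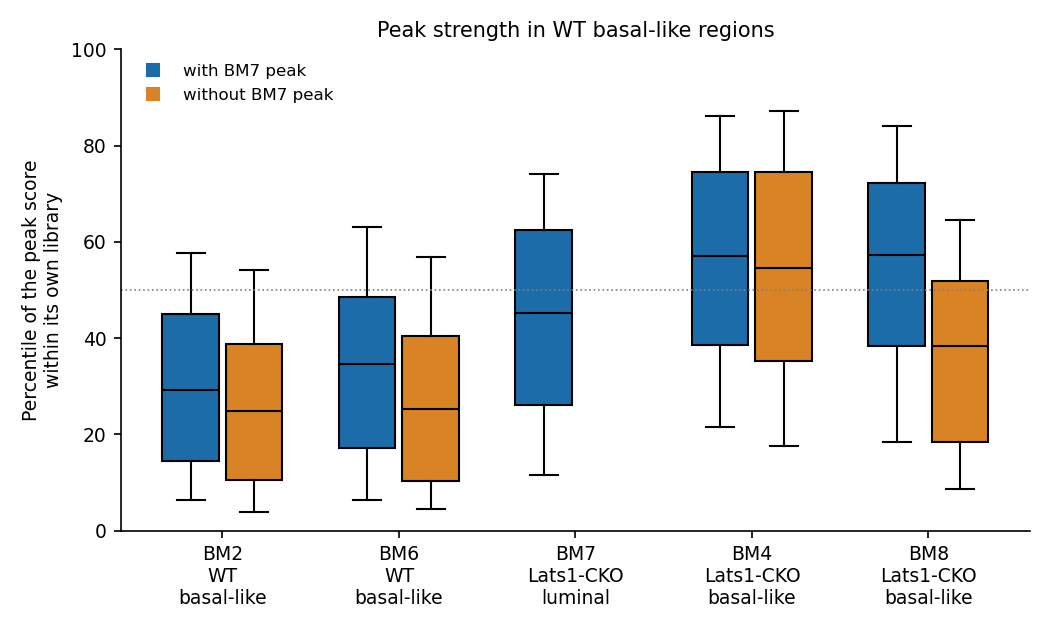
Score percentile within the library for WT basal-like regions with and without a BM7 peak (box, quartiles; line, median; whiskers, 10th and 90th percentiles), over the regions with a peak in that library. The dotted line is the median peak of the library, and the lists behind the libraries differ in length, so boxes are compared within a library only. In BM8 the medians are 57.2 and 38.3.

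The share of WT basal-like regions with a BM7 peak went up with WT basal-like strength. With the regions in 4 bins by the smaller of their percentiles in BM2 and BM6, it was 61.0% in the weakest bin, then 66.2%, 71.6% and 76.5%. Mixed and other regions were not binned in this way, so whether the rise is particular to WT basal-like regions was not tested. The BM8 share of members exceeded that of regions without a BM7 peak in all 4 bins (76.9% against 41.4% in the lowest, 86.6% against 48.2% in the highest). In BM4 the shares were 60.2% and 60.4% in the lowest bin and 80.2% and 69.1% in the highest. At the edge of the rule, the lowest BM7 score was 13, the minimum of the list, in 1 member, and 19 members (1.46%) had a BM7 score under 20. On the other side, 221 members (17.0%) had a WT luminal peak within 500 bp, 7 of them within 50 bp. Of regions without a BM7 peak, 132 (22.1%) had one within 500 bp, a difference of -5.13 points (-9.14 to -1.33).

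Promoters made up about the same share of both sets. A TSS lay within 1 kb of 277 members (21.3%) and of 116 regions without a BM7 peak (19.5%), a difference of 1.86 points whose interval (-2.13 to 5.63) spanned 0, beside 19% of all merged regions. Within 5 kb the shares were 44.7% and 39.1%, a difference of 5.63 points (0.836 to 10.3), beside 37.4% of all regions, and over 50 kb from any TSS lay 7.31% and 10.7%. Within 1 kb, the difference was 6.78 points (4.31 to 9.11) without BM1 in the rule, 3.34 (1.79 to 4.9) without BM2 and 3.81 (2.49 to 5.15) without BM6, so the call depended on the libraries that defined the regions. Mixed regions with and without a BM7 peak differed in the same direction, with 40.5% and 34.6% within 5 kb. Introns held 52.0% of members and intergenic sequence 36.8%. Untranslated exon parts held 4.62% of members, close to the 4.66% of all merged regions, against 2.18% of regions without a BM7 peak, and other noncoding exons held 5.0% against 2.35%, beside 3.25% of all. The median width was 209 bp in members and 178.5 bp in the comparison regions, and its part in the differences was not tested.

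**Figure D4:**
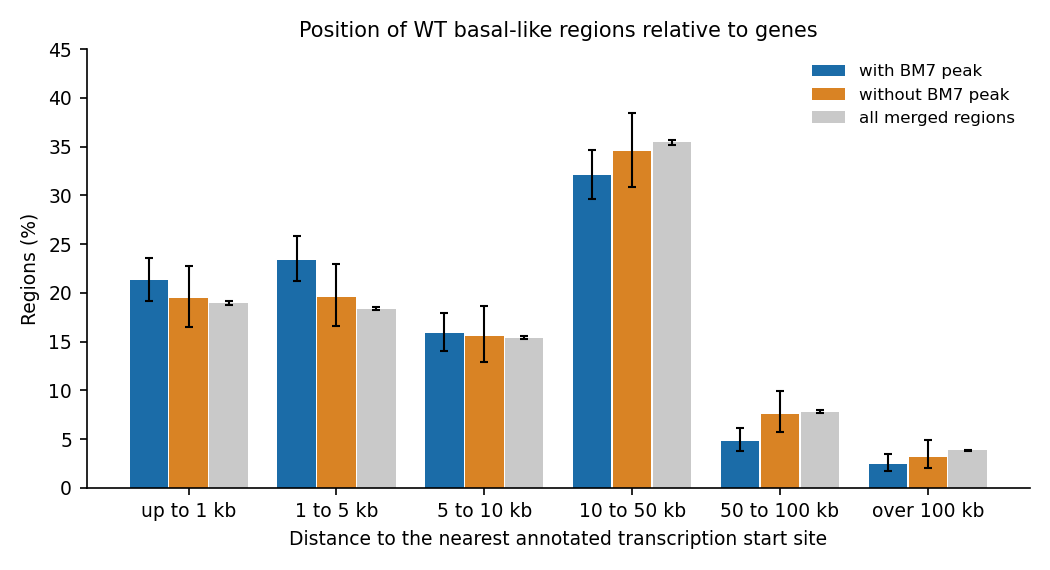
Share of regions (%, bars, with Wilson 95% intervals) by distance to the nearest annotated TSS, for WT basal-like regions with and without a BM7 peak and for all merged regions. Up to 1 kb the shares are 21.3%, 19.5% and 19%, and most regions of every set lie farther away.

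The members were spread over the genome rather than gathered at few genes. They had 1249 nearest genes, of which 1202 were nearest to 1 member and 44 to 2. Glis3, Prickle2 and Zcchc24 were nearest to 3 each and are named after this was seen, since no gene had 4. Of 57 merged regions nearest to Glis3, a zinc finger factor, 3 were members and none was a WT basal-like region without a BM7 peak, while Prickle2, a planar polarity gene, had 3 of each. Neighbouring members on a chromosome were a median of 944 kb apart, and 18 of 1279 such pairs were within 10 kb. The 596 comparison regions had 581 nearest genes. The nearest genes of the sets had 52 in common, which is 4.16% of the genes of members and 8.95% of those of the comparison regions. Of all protein-coding genes, 2.67% had a comparison region and 5.8% a member, by the wider assignment used for the gene lists below. The overlap was not tested.

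Gene lists were then read against this background: 1260 of 21728 protein-coding genes (5.8%) had a member, and 0.709% of all merged regions were members. A region was given to the gene with the nearest TSS, among all genes or among coding genes, or to any gene with a TSS within 5 kb. Listed genes have many regions each, so the share of their regions is the closer comparison. For basal-like and myoepithelial genes, 5 of 30 had a member and 6 of 509 regions (1.18%) were members; for luminal genes, 4 of 25 and 0.855%. For genes of epithelial-mesenchymal transition (EMT) it was 9 of 35 and 1.21%, for the Hippo pathway and YAP/TAZ targets 5 of 31 and 0.724%, for AP-1, RUNX and SOX factors 8 of 25 and 0.839%, and for adhesion and actin genes 6 of 30 and 0.904%. Some members given to a listed gene were far from it. Those of Sox9, Sox5, Runx1 and Sox4 lay 715911, 388266, 266572 and 156406 bp from its TSS. Lists of genes tied to NCOR1 and named in the study had 2 of 15 and 0.966%. Of the lists for other cell types, 1 of 10 fibroblast genes had a member (0.505% of their regions), 1 of 10 endothelial genes (1.07%) and 0 of 12 immune genes (0 of 62 regions), so the endothelial share was close to those of the basal-like and EMT lists. Members and comparison regions numbered 6 and 2 for the basal-like list, 12 and 5 for EMT, and 4 and 3 for luminal genes. They numbered 5 and 1 for Hippo, 9 and 3 for AP-1, RUNX and SOX, and 7 and 4 for adhesion and actin. For the NCOR1, fibroblast and endothelial lists they were 4 and 3, 1 and 1, and 2 and 2, beside 1299 and 596 in all. The shares of all regions thus do not set members apart from other WT basal-like regions. The lists were not tested, and with so few regions each none is set apart from the others here.

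Oxtr, the oxytocin receptor of contractile basal cells, had 2 members upstream of its TSS. The nearer, chr6:112497571-112497788, lay 7628 bp away, with percentiles of 21.8 in BM2, 3.31 in BM6, 56.9 in BM7, 76.2 in BM4 and 84.1 in BM8. The farther, chr6:112501192-112501394, lay 11249 bp away, with 24.8, 63.0 and 67 in BM2, BM6 and BM7 and 85.5 in BM8, and had no peak in BM4. BM7 and BM8 also shared a peak between the nearer member and the TSS that no WT library had. The nearer member holds 1 AP-1 match.

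The other basal genes with members included parts of the contractile and adhesive machinery. Mylk, which encodes the myosin light chain kinase of smooth muscle, had a member in an intron 1412 bp from a TSS, at 74.0 in BM2, 49.1 in BM6, 58.3 in BM7, 90.8 in BM4 and 74.3 in BM8. Itga6 encodes CD49f, one of the antigens used in the sort and high in all groups; its member was at 50 in BM2, 29.2 in BM6, 83.7 in BM7 and 84.5 in BM8. Trp63, the gene of the basal factor p63, had a weak one 67778 bp upstream, at 8.45, 2.22 and 6.84 in BM2, BM6 and BM7 and at 57 and 51.8 in BM4 and BM8. A member in Egfr, the EGF receptor gene, was at 55.8, 73.9 and 43.3. Among comparison regions, one lay 7125 bp from the TSS of Acta2 (smooth muscle actin), with no peak in BM7 although BM4, BM6 and BM8 had 48.5, 57 and 25.6.

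The EMT list was the longest list searched, with 35 genes and 995 regions, and it had the most members, 12 (1.21% of its regions). A member of 579 bp lay across the TSS of Vim, the intermediate filament gene, at 51.1 in BM2, 32.2 in BM6, 65.8 in BM7, 90.7 in BM4 and 74.6 in BM8. It had a WT luminal peak 283 bp away. A member across the TSS of Axl, a receptor kinase and YAP/TAZ target, was at 29.3, 79.2, 68.9, 77.5 and 72.3 in the same libraries. Col5a1, a fibrillar collagen gene, had 2 members 27495 and 50013 bp upstream, and its nearer one was at 15.1 in BM2, 48.6 in BM6, 97 in BM4 and 93.9 in BM8. Its promoter region was not among them: there BM2, BM6, BM4 and BM8 had a peak and BM7 had none. The promoter of Pdgfrb, a mesenchymal receptor kinase, had that same pattern, with 22.3, 62.0, 89.9 and 49.7 in BM2, BM6, BM4 and BM8. So at Col5a1 and Pdgfrb the promoter had peaks in BM2 and BM6 and none in BM7. Fbn1, Col6a3, Col1a1 and Tgfbr2 had members between 5800 and 156097 bp from the TSS of the gene named. The farthest of these, given to Tgfbr2, lay 289 bp from the TSS of the long noncoding RNA D730003K21Rik. The one given to Col1a1 lay 69426 bp from its TSS and 4930 bp from that of a pseudogene. The one given to Zeb2 lay 1326133 bp away, beyond a distance at which a gene is usually assigned.

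Within the Hippo pathway, Lats2, the paralog of Lats1, had a member in an intron 4105 bp from its TSS, at 42.0 in BM2, 32.2 in BM6, 48 in BM7, 90.3 in BM4 and 62.7 in BM8. A WT luminal peak lay 441 bp from it. Its sequence has 1 AP-1, 2 RUNX and 1 NFI match. Tead1, the gene of a factor that YAP and TAZ bind, had one 11835 bp from a coding TSS with 62.5, 28.4 and 26.2 in BM2, BM6 and BM7. Crim1 and Arhgef17, both YAP/TAZ targets, had 1 each. The promoter of Amotl2, an angiomotin that binds YAP, was a weak WT basal-like region without a BM7 peak, at 0.698 in BM2 and 3.95 in BM6. Lats1 itself and the other 25 genes of the list had no member.

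Luminal genes were also on both sides. Xbp1, a factor of the secretory pathway, had a member 203 bp from its TSS at 51.1, 38.7 and 45.9 in BM2, BM6 and BM7, with a WT luminal peak 202 bp away. E-cadherin (Cdh1) had a member in an intron 36902 bp from its TSS, at 32.8, 40.8 and 39.2, without a peak in BM4 or BM8, and a region 10610 bp from the TSS without a BM7 peak, at 84.5 in BM4. Esr1, the estrogen receptor gene, had an intronic region without a BM7 peak at 38.8, 71.8 and 75.3 in BM2, BM6 and BM4. Krt8 had a weak member 16122 bp from its TSS, at 3.97 in BM7. Among transcription factors, Atf3, an AP-1 family member, had a member 475 bp from its TSS at 27.1, 15, 63.4, 82.6 and 69.5 in BM2, BM6, BM7, BM4 and BM8. Actin regulators with a member within 1 kb of a TSS were Flna and Myl9, with BM7 percentiles of 74.7 and 19.5.

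The 5 strongest regions without a BM7 peak were nearest to Gm49414, Elavl1, Best3, Tle1 and Zdhhc25. All 5 had a peak in BM4, at 97.8, 97.9, 59.2, 66.4 and 72.2, and 2 of them, Gm49414 and Elavl1, had one in BM8, at 45.6 and 35.4. The region near Elavl1, an RNA-binding protein gene, was at 66.1 and 89.3 in BM2 and BM6. The smaller of the BM2 and BM6 percentiles was 61.4 to 78 in these 5. All of the 10 strongest members had a BM8 peak.

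Sequence distinguished the sets most clearly in 1 of 13 motifs. An AP-1 match stood in the central 200 bp of 283 members (21.8%) and of 221 regions without a BM7 peak (37.1%), a difference of -15.3 points (-19.8 to -10.9). Members were thus below, and the comparison regions above, the 26.1% of all merged regions. It was in the same direction in all 4 bins of WT basal-like strength (-11.5 to -19 points), in regions over 1 kb from a TSS (24.7% against 41.2%) and in those within 1 kb (11.2% against 19.8%). Within the members, the share fell with BM7 strength, from 25.9% in the weakest of 3 bins to 17.8% in the strongest. These bins use scores of the BM7 peaks that chose the members, so the fall is a description only. It was not tested or compared with other regions.

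The lower AP-1 share with a BM7 peak was not particular to basal-like regions. It was 27.3% with and 45.5% without a BM7 peak in mixed regions, 21.8% and 39.0% in WT luminal regions, and 27.3% and 53.2% where all 4 WT libraries had one. For a BM8 peak the difference in WT basal-like regions was -7.52 points (-12.0 to -3.2), and for BM4 it was 5.83 points in the other direction (1.55 to 9.89). Over all peaks, AP-1 was in 34.1% of regions with a peak in BM2, the highest share of the 8 libraries, in 31.2% for BM4, and in 23.3% for BM7, 23.7% for BM6, 25.8% for BM8 and 21.1% for BM3. BM2 and BM4 thus differed from BM6 and BM8 of the same groups, and the labels name no batch that separates them. The difference also rested on BM2: with WT basal-like regions defined by BM6 alone, it was -0.307 points (-1.79 to 1.19), and by BM2 alone it was -12.7 (-14.4 to -11.0). With BM3 in place of BM7 it was -7.25 points (-17.2 to 8.45).

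**Figure D5:**
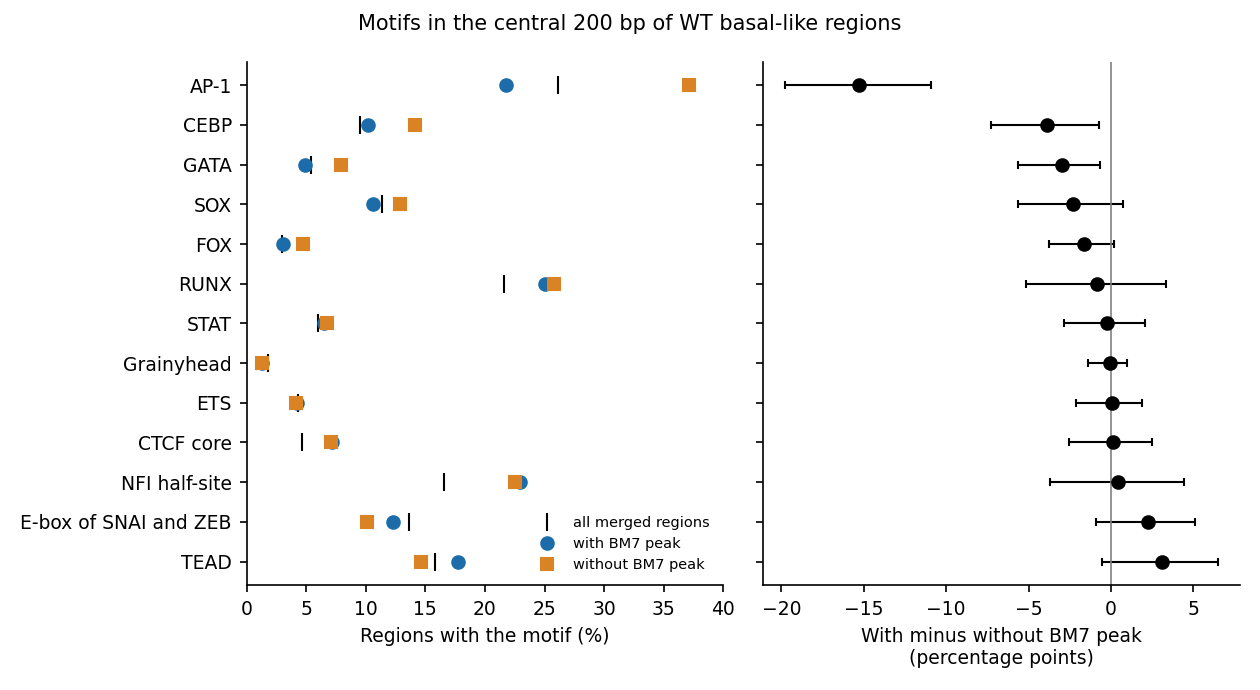
Share of WT basal-like regions with each of 13 motifs in the central 200 bp, with and without a BM7 peak and in all merged regions (left, %), and the difference with its Newcombe 95% interval (right, percentage points). AP-1 is at 21.8% against 37.1%, and the intervals of 10 motifs span 0.

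The other motifs searched were TEAD (GGAATG), the E-box of SNAI and ZEB repressors (CAGGTG), SOX (ACAATG), ETS (CCGGAA), FOX (TGTTTAC), Grainyhead (AACCNGTT), STAT (TTCNNNGAA) and CEBP (TTGCNNAA), and AGATAA for factors of the GATA family, on both strands, each counted on its own where matches overlapped. TEAD, the site through which YAP and TAZ act, was in 17.7% of members, 14.6% of comparison regions and 15.8% of all regions, and the interval of the difference (-0.537 to 6.5) spanned 0. RUNX and NFI matches were about as frequent in members as in comparison regions (25% and 25.8%, 22.9% and 22.5%) and above the 21.6% and 16.6% of all regions. CAGGTG was in 12.3% and 10.1%, while WT luminal regions had it in 28.4% and all regions in 13.6%. For GATA the difference between members and comparison regions was -2.96 points (-5.62 to -0.645), with 4.93% of members, 7.89% of comparison regions and 5.37% of all, and mixed regions had 4.79% with and 7.81% without a BM7 peak. For CEBP it was -3.86 points (-7.25 to -0.741), with 14.1% of comparison regions and 9.54% of all against 133 of 1299 members, so members lay near all regions and the comparison regions above them. For SOX, FOX, ETS, Grainyhead, STAT and CTCF the interval of the difference spanned 0. A match is a short word and shows neither binding nor its absence.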

How the data were processed

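ATAC-seq was done on 8 libraries of sorted cells, 2 per group. Per the labels and the study's methods, the authors trimmed reads with cutadapt, aligned them uniquely to mm10 with Bowtie 1.0.0, removed mitochondrial and duplicate reads (Picard 2.3.0) and long fragments, called peaks per library with MACS2 and removed blacklisted ones. The submitters' processing notes give MACS2 2.1.1.20160309 and the methods another version. The authors deposited 1 peak list per library, each peak with a score of at least 13, taken from its values to be that of MACS2; it depends on depth, so percentiles within each library were taken (ties averaged). The lists hold no counts, so precision beyond the number of regions is unknown.

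Peaks were merged (overlap of 1 bp), and TSSs (GENCODE M21) and sequence (GRCm38.p6) were assigned with python 3.11.15, pandas 2.3.3, numpy 2.4.6, scipy 1.17.1 and pysam 0.24.0. Shares have Wilson, differences Newcombe 95% intervals. The merging, rule and motif search were tested on simulated data. Named regions are the 10 members, and the 10 members within 1 kb of a coding TSS, with the highest smallest percentile of the defining libraries, the 5 such regions without a BM7 peak, genes nearest to 4 or more members, and members at listed genes. Regions picked otherwise are marked as such where they appear. The members and lists were chosen with earlier results of these data known. Alternatives were other peak thresholds, overlaps, merging and distances, autosomes only, and each library left out. RNA-seq was not used here.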

Additional observations from a re-analysis of the deposited data

How the results depend on the processing

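The number of members depended most on which libraries entered the rule. Leaving out 1 library in turn, it was 36 to 8625, and the share of WT basal-like regions with a BM7 peak was 1.89% to 86.2%. The lowest values are those with BM3 in place of BM7, and the highest those without BM1, when BM5 alone had to lack a peak. The number was 3917 without BM2, 4826 without BM6 and 1985 without BM5, and the share was 43.9%, 35.7% and 70.4%. Over the same settings the difference between regions with and without a BM7 peak was 8.67 to 27.9 points for BM4, -7.16 to 53.2 for BM8, 0.316 to 6.87 for BM3, 1.81 to 7.13 for promoters and -15.3 to -0.307 for AP-1. The BM8 difference turned only with BM3 in place of BM7, to -7.16 points (-23.5 to 7.11) over 36 regions, and the AP-1 difference was closest to 0 without BM2. The BM3 difference excluded 0 without BM1 (5.8 to 7.76), BM2 (0.103 to 0.97) or BM6 (0.456 to 1.12).

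With all libraries kept, the directions of the BM4, BM8 and AP-1 differences held. Peaks above the median score of their library left 544 members (65.8% of WT basal-like regions), a BM4 difference of 3.25 points (-3.0 to 9.78) and a promoter difference of 6.58 points (0.673 to 12.0). With the 50000 highest-scoring peaks the share was 49.1%, against 41.6% of mixed regions, and the BM3 difference 2.43 points (0.959 to 3.99). The promoter difference was 5.63 points with TSSs within 5 kb. Restricting AP-1 to regions over 1 kb from a TSS, chosen after seeing the data, gave -16.6 points. Of the 15 named strongest members, 11 had no WT luminal peak within 500 bp and 10 were members when a peak had to cover 50% of the region. No paired analysis was possible because the labels give libraries no replicate numbers, and numbers set in accession order pair nothing. Depth per library is not known here, and absence of a peak in BM3, BM1 or BM5 is therefore no measure of closed chromatin.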

Other observations

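The 26 members with a peak in BM3 are the ones that both Lats1-CKO luminal libraries had. Beside the member at Il2rb they included an intronic region at Castor1, a sensor of arginine for mTORC1, at 36.1 in BM2, 27.8 in BM6, 62.0 in BM7 and 52.1 in BM3. A region 146 bp from the TSS of the histone deacetylase gene Hdac11 was at 45, 56.6, 70.2 and 33.8 in the same libraries. A region near Mir21a, a microRNA gene, was at 48.9, 18.7, 10.1 and 8.28. The regions at Castor1, Hdac11 and Mir21a were picked from the 26 with their values known, outside the rules for named regions. The strongest in BM3, at 99.9, was nearest to C330021F23Rik. Of the 26, 2 were at or above the median peak of BM3.

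By chromosome, members were most unlike the regions without a BM7 peak on chromosomes 11 (7.62% of members against 4.36%, and 6.46% of all merged regions) and 13 (3.46% against 6.38%, and 4.57%). The difference was not tested, and the chromosomes were picked after the shares were seen.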
